A study of Mus musculus with 9 samples.

Results

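The genes in question are the 3 transforming growth factor beta (TGF-beta) ligand genes Tgfb1, Tgfb2 and Tgfb3, the receptor genes Tgfbr1 and Tgfbr2, and 5 SMAD genes (Smad2, Smad3, Smad4, Smad6 and Smad7). They were chosen by name, with earlier results of these data known. All 10 were among the 12339 genes with values, and all 10 were among the 12326 that passed a filter on low reads. Mouse KP-GFP lung tumour cells, which carry green fluorescent protein and are labelled C57BL/6, were grown as spheroids with TRMs (tissue-resident macrophages of the lung, that is alveolar macrophages), with bone-marrow monocytes, or alone, with 3 libraries in each of the 3 groups. Each spheroid was started from 2500 tumour cells, to which 5000 TRMs or 5000 monocytes were added in the co-cultures, and was cultured over 7 days. Spheroids were pooled in sets of 32 per condition, and RNA came from GFP-positive cells taken by flow sorting, so the values describe cells inside that gate. The labels do not spell out the alleles that KP stands for, the clone or the number of animals. Nothing in the labels says whether the replicates came from separate cultures, and the p-values below reflect the spread among these libraries alone, which may be technical.

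TGF-beta is secreted in a latent form, bound to its own propeptide and tethered to latent TGF-beta binding proteins, and is released by integrins and proteases. Active ligand binds the type II receptor Tgfbr2, which recruits and phosphorylates the type I receptor Tgfbr1. Tgfbr1 phosphorylates Smad2 and Smad3, which join Smad4 and enter the nucleus to change transcription. Smad6 and Smad7 are the inhibitory SMADs, and Smad7 is itself switched on by the pathway and acts on the receptors as negative feedback. In lung epithelium and lung carcinoma the pathway is known for growth arrest, for the epithelial-mesenchymal transition and for matrix production.

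Values are in CPM, the read number of a gene (with 0.5 read added) relative to the library size after scaling by edgeR's trimmed mean of M-values (TMM). Reads recovered for the 12339 genes with values numbered 16001895 to 32771448 per library. Mitochondrial transcripts took 0.288% to 0.667% of these reads. Among 8 epithelial markers, the summed value was 14777 to 18169 CPM with TRMs, 9998 to 15748 CPM with monocytes and 14412 to 15874 CPM alone. Of 28 macrophage and monocyte markers 17 had values. Their sum was 178 to 331 CPM with TRMs, 190 to 253 CPM with monocytes and 165 to 257 CPM alone, of which Cd14 gave 84.3 to 202 CPM with TRMs, 95.7 to 166 CPM with monocytes and 105 to 213 CPM alone. Without Cd14 it was 81.5 to 156 CPM with TRMs, 86.3 to 94.7 CPM with monocytes and 30.0 to 76.6 CPM alone. Within that sum Mrc1 was at 22.4 to 39.8 CPM with TRMs, 34.6 to 47.8 CPM with monocytes and 4.98 to 5.37 CPM alone. F13a1 was at 9.67 to 17.3, 7.21 to 17.0 and 0.747 to 1.31 CPM in the same order. With Mrc1 and F13a1 taken out as well, the sums of both co-cultures overlapped those alone. No one of the 17 was at 0 reads in all libraries, and 4 (Ptprc, Siglecf, Itgax and Itgam) had 0 reads in at least 1. A gene was called where limma's test across all genes gave a Benjamini-Hochberg adjusted p under 0.05.

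With TRMs, 2 of the 10 genes were called higher than alone (Tgfb1 and Smad7), none was called lower and 8 were not called. Of all tested genes 18.4% were called in this comparison, 10.2% higher and 8.15% lower. With monocytes, the same 2 genes were called higher and Tgfbr1 was called lower, 3 of 10 beside 27.3% of all genes (14.7% higher and 12.7% lower). Both shares lay near those of all genes, so the number of called genes does not set this family apart. The median log2 fold change of the 10 was 0.16 with TRMs, where that of all tested genes was -0.0019, and 0.11 with monocytes, where that of all genes was -0.02. The groups did not overlap for 4 genes with TRMs (Tgfb1, Tgfb2, Tgfbr1 and Smad7), with 39.3% of all genes in the same state, and for 6 with monocytes (Tgfb1, Tgfb3, Tgfbr1, Smad3, Smad4 and Smad7), with 40.5% of all genes. The co-cultures share the libraries of tumour cells alone, so their agreement is not independent.

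**Figure D1:**
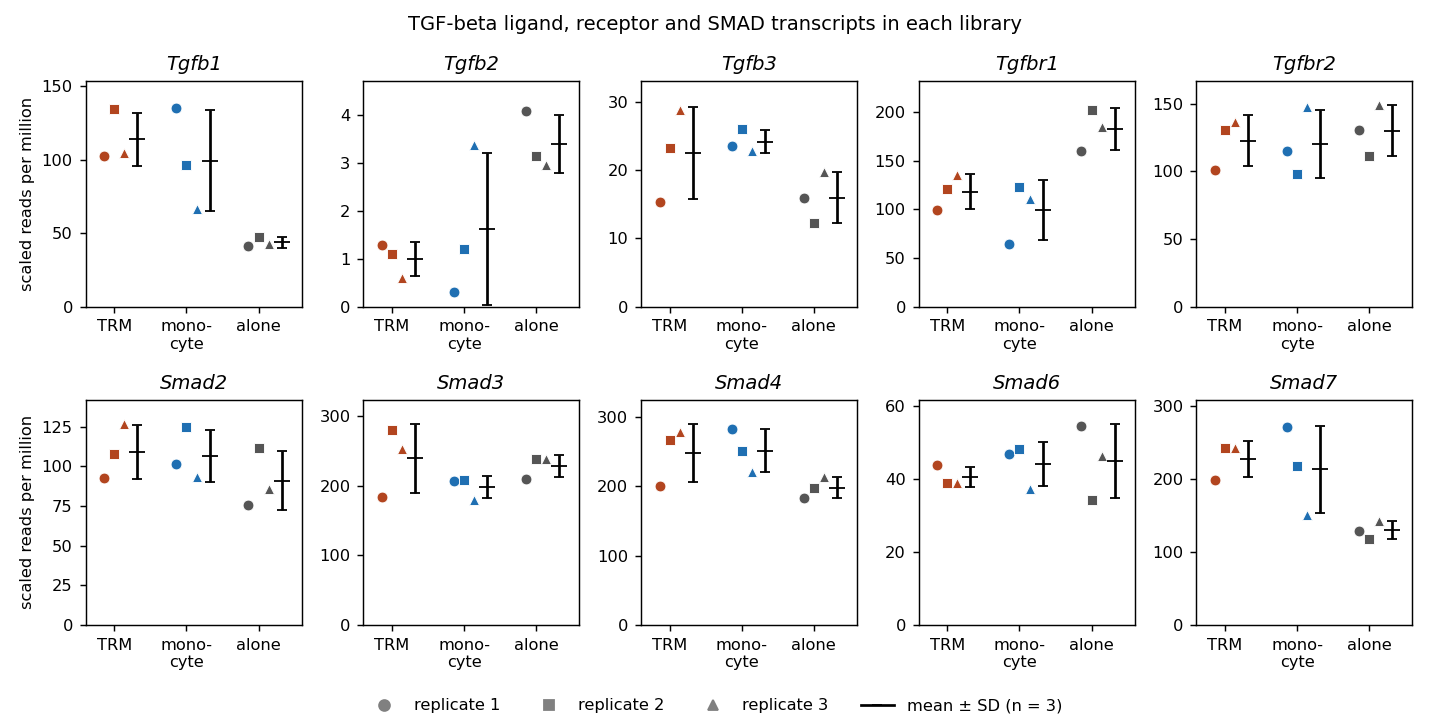
Each panel plots 1 gene in CPM, with every library as a point (symbol by replicate number), in the order TRM co-culture, monocyte co-culture and alone, and the mean ± SD of 3 libraries beside the points. Tgfb1 and Smad7 lie higher in both co-cultures than alone and Tgfbr1 lies lower, whereas Tgfbr2 and Smad6 overlap in all groups.

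Among the ligands, Tgfb1 rose in both co-cultures. Tgfb1 (chr7:25687002-25705077, plus strand, mm10) encodes the most widely expressed TGF-beta, made by epithelial, stromal and myeloid cells. It had 102, 135 and 105 CPM with TRMs, 135, 96.6 and 66.7 CPM with monocytes, and 40.9, 47.5 and 42.4 CPM alone. The lowest co-culture library (monocyte replicate 3) lay above the highest library of tumour cells alone, and the monocyte libraries were spread more widely than the TRM libraries. The mean was 114 ± 18 CPM with TRMs, 99.3 ± 34.1 CPM with monocytes and 43.6 ± 3.47 CPM alone (SD, n = 3 each). Against tumour cells alone, the log2 fold change with TRMs was 1.38 (SE 0.21), a 2.6-fold rise with an adjusted p of 0.00072 by limma. With monocytes it was 1.13 (SE 0.21), a 2.19-fold rise with an adjusted p of 0.0018 by limma. Both calls held in each of the 9 fits that left out 1 library and each of 10 other settings. Macrophage transcripts moved with it in part. Mrc1, the macrophage mannose receptor, was 6.23-fold higher with TRMs and 7.57-fold higher with monocytes than alone. F13a1, a coagulation factor subunit made by monocytes and macrophages, was 14-fold and 13.4-fold higher. By limma, Mrc1 and F13a1 were called higher in both co-cultures, and no other of the 17 markers was called higher. Of the 17 markers, 11.8% were called with TRMs, beside 18.4% of all genes, and 29.4% with monocytes, beside 27.3% of all genes. No marker was called lower with TRMs, and 3 were with monocytes. These were Ptprc (log2 fold change -3.82, adjusted p = 0.0361 by limma, 0.0778 by edgeR), Chil3 (-3.63, adjusted p = 0.0066 by limma) and Siglecf (-3.95, adjusted p = 0.0413 by limma), the last named after its values were seen. By limma-voom the adjusted p was 0.106 for Ptprc and 0.0728 for Chil3. The number lower with monocytes was 1 without any 1 of the alone replicates or without monocyte replicate 1. With monocytes, Ptprc had 2, 13 and 0 reads and Siglecf 0, 4 and 3. Ptprc, which encodes the pan-leukocyte surface protein CD45, was at 4.47, 0.50 and 0.88 CPM with TRMs, 0.14, 0.57 and 0.02 CPM with monocytes, and 3.46, 1.43 and 0.92 CPM alone. The part of macrophage RNA in the Tgfb1 values, or in those of the other genes described here, was not tested. In bulk libraries a lower value from fewer cells that express a gene and one from less RNA per cell cannot be told apart.

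Tgfb2 and Tgfb3 were not called. Tgfb2 (chr1:186622792-186705989, minus strand), the ligand that needs a co-receptor to bind Tgfbr2 well, had few reads: 20, 18 and 14 with TRMs, 5, 28 and 80 with monocytes, and 91, 69 and 98 alone. In CPM it was 1.28, 1.09 and 0.59 with TRMs, 0.30, 1.19 and 3.39 with monocytes, and 4.08, 3.15 and 2.96 alone. All TRM libraries lay below all libraries of tumour cells alone, while monocyte replicate 3 lay among them. The log2 fold change was -1.84 (SE 0.77, adjusted p = 0.119 by limma) with TRMs and -1.66 (adjusted p = 0.131 by limma) with monocytes. With TRMs the adjusted p was 0.0212 when the 2 groups were fitted on their own and 0.0325 without monocyte replicate 1. With monocytes it was 0.0191 without monocyte replicate 3, where the log2 fold change was -2.50. Tgfb3 (chr12:86056745-86079041, minus strand), a ligand prominent in palate and lung development, had 15.4, 23.3 and 28.8 CPM with TRMs, 23.6, 26.1 and 22.9 CPM with monocytes, and 15.9, 12.3 and 19.8 CPM alone. Its values with monocytes did not overlap those alone. The log2 fold change was 0.47 with TRMs (adjusted p = 0.213 by limma) and 0.62 with monocytes (adjusted p = 0.0784 by limma, and 0.0452 without TRM replicate 1). Annotated transcripts on the opposite strand overlap exons of Tgfb2 and Tgfb3, and since no source says that the library kit keeps strand, reads from either strand there cannot be told apart.

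Per length, the mean share of Tgfb1 among the ligand transcripts was higher in both co-cultures than alone, with overlap for monocytes. No exact test could pass 0.05 in this design. Of the summed CPM per kb of exon of the 3 ligands, Tgfb1 took 81.0%, 79.1% and 70.7% with TRMs, 79.2%, 70.8% and 64.3% with monocytes, and 60.1%, 69.4% and 56.9% alone. These percentages depend on the length used. For Tgfb1 the exons together span 5042 bases and the longest transcript 2573 bases, while Tgfb3 has 3383 bases by both. With the longest transcript as length, the mean of Tgfb1 alone was 16.9 CPM per kb in place of 8.64. Every TRM library lay above every library of tumour cells alone, and the monocyte libraries overlapped them. The means were 76.9% ± 5.49 with TRMs, 71.4% ± 7.47 with monocytes and 62.1% ± 6.47 alone (SD, n = 3 each). An exact two-sided permutation test gave p = 0.1 for TRMs against alone, the smallest p that 3 against 3 allows, and p = 0.2 for monocytes against alone. Adjusted over the 6 share tests by the Benjamini-Hochberg method, both were 0.3 (permutation tests).

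The promoters of Tgfb1 and Tgfb2 are shown because these ligand genes lay far apart in level and Tgfb1 alone of the ligands was called. Each run is 250 bases up to the base before the RefSeq start (GRCm38.p6), 5′ to 3′ on the gene's strand, at chr7:25686752-25687001 for Tgfb1 and chr1:186705990-186706239 for Tgfb2. Capitals mark the motifs found on either strand.
Tgfb1: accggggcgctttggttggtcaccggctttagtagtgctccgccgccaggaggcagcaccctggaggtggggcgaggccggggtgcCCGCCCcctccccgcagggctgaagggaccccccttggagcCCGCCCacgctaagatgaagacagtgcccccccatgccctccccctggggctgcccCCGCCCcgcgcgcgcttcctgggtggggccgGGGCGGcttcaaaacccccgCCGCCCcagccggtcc
Tgfb2: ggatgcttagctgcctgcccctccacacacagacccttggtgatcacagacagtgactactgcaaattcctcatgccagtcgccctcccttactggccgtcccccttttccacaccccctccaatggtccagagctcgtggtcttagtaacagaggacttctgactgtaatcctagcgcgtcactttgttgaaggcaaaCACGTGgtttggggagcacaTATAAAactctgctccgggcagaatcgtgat
Motifs searched on both strands were the GC box GGGCGG, the E-box CACGTG, the TATA box letters TATAAA, the AP-1 letters TGANTCA and the SMAD palindrome GTCTAGAC. The Tgfb1 window held 5 GC boxes, counted on both strands, and none of the other motifs. The Tgfb2 window held CACGTG starting 51 bases and TATAAA starting 31 bases before the start. No match overlapped another. Among the same windows of 32851 RefSeq promoters, 32.7% held GGGCGG, 6.02% CACGTG, 12.4% TATAAA, 6.75% TGANTCA and 0.167% GTCTAGAC. The GC content was 75.2% for Tgfb1 and 53.6% for Tgfb2, beside a median of 52.4% over all promoters.

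Of the receptors, Tgfbr1 fell with monocytes and Tgfbr2 was not called in either. Tgfbr1 (chr4:47353222-47414931, plus strand), the kinase that phosphorylates Smad2 and Smad3, had 99.1, 121 and 135 CPM with TRMs, 64.8, 123 and 111 CPM with monocytes, and 160, 203 and 185 CPM alone. Every co-culture library lay below every library of tumour cells alone. The mean was 118 ± 18 CPM with TRMs, 99.5 ± 30.6 CPM with monocytes and 183 ± 21.3 CPM alone (SD, n = 3 each). With monocytes Tgfbr1 fell by 0.92 on the log2 scale (SE 0.21, adjusted p = 0.0061 by limma), and this call held in all 19 alternatives. With TRMs the log2 fold change was -0.63 (SE 0.21, 95% interval -1.09 to -0.17), and the adjusted p of 0.0548 by limma missed the threshold. It was under 0.05 in 7 of the 10 other settings, among them DESeq2 (0.0169), limma-voom (0.0481) and a fit of the 2 groups on their own (0.0104). It was also under 0.05 without monocyte replicate 1 (0.0084), 2 (0.0464) or 3 (0.0451). These were the only 3 of the 9 fits without 1 library that called it. Without any 1 of the TRM or alone libraries it was not called (adjusted p up to 0.169 by limma). In the authors' deposited table the same contrast has a log2 fold change of -0.65 with a false discovery rate of 0.00039.

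Tgfbr2 (chr9:116084293-116175360, minus strand), the ligand-binding receptor, had 101, 131 and 137 CPM with TRMs, 115, 97.8 and 148 CPM with monocytes, and 130, 111 and 149 CPM alone. The groups overlapped throughout. Its log2 fold change was -0.09 with TRMs (95% interval -0.47 to 0.30, adjusted p = 0.789 by limma) and -0.12 with monocytes (95% interval -0.51 to 0.26, adjusted p = 0.645 by limma). A change of Tgfbr2 as large as the monocyte value of Tgfbr1 lies outside both intervals. The type III receptor gene Tgfbr3 had no values in these data.

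The promoter windows of the receptor genes are shown for the same comparison, at chr4:47352972-47353221 for Tgfbr1 (the upstream of its RefSeq starts) and chr9:116175364-116175613 for Tgfbr2, with GC boxes in capitals.
Tgfbr1: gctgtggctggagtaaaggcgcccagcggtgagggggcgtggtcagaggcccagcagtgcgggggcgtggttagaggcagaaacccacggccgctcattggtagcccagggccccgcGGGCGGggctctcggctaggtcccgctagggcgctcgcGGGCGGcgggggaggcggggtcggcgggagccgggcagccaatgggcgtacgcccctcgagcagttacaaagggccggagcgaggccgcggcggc
Tgfbr2: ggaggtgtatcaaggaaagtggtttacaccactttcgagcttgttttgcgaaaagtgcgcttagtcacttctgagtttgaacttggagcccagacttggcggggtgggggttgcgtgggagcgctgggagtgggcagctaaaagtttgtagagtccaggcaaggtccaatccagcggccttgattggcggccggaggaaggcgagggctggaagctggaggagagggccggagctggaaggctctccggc
Tgfbr1 had 2 GC boxes in a window of 74.8% GC, and Tgfbr2 held none of the 5 motifs in a window of 58.4% GC. A match is a description of letters and not a measured site.

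The SMADs that carry the signal were not called in either co-culture. Smad2 (chr18:76241580-76310963) had 92.5, 108 and 127 CPM with TRMs, 101, 125 and 93.2 CPM with monocytes, and 75.7, 111 and 85.9 CPM alone. Smad3 (chr9:63646767-63757994) had 184, 281 and 253 CPM with TRMs, 207, 208 and 179 CPM with monocytes, and 210, 238 and 238 CPM alone. Smad4 (chr18:73639009-73703780), the partner shared with the bone morphogenetic protein (BMP) branch, had 201, 266 and 279 CPM with TRMs, 282, 252 and 221 CPM with monocytes, and 183, 197 and 213 CPM alone. Smad2 overlapped in all groups, and TRM replicate 1 was the lowest TRM library for all of these genes. The monocyte libraries lay just below those alone for Smad3 and just above them for Smad4. With TRMs the log2 fold changes were 0.27 for Smad2 (adjusted p = 0.332), 0.05 for Smad3 (adjusted p = 0.876) and 0.32 for Smad4 (adjusted p = 0.173), all by limma. With monocytes they were 0.24 for Smad2 (adjusted p = 0.353), -0.21 for Smad3 (adjusted p = 0.354) and 0.34 for Smad4 (adjusted p = 0.115), all by limma. The 95% intervals of these 6 values ran from -0.55 at the lowest to 0.67 at the highest.

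Of the inhibitory SMADs, Smad7 rose in both co-cultures and Smad6 was not called. Smad7 (chr18:75367529-75395935, plus strand) had 199, 242 and 242 CPM with TRMs, 271, 217 and 151 CPM with monocytes, and 128, 118 and 143 CPM alone. All co-culture libraries were above all libraries alone, by a small margin for monocyte replicate 3. The mean was 228 ± 24.8 CPM with TRMs, 213 ± 59.9 CPM with monocytes and 130 ± 12.5 CPM alone (SD, n = 3 each). Smad7 rose 1.75-fold with TRMs (log2 fold change 0.81, SE 0.19, adjusted p = 0.0086 by limma), a call that held in all 19 alternatives. It rose 1.6-fold with monocytes (log2 fold change 0.68, SE 0.19, adjusted p = 0.0157 by limma). That call was lost without alone replicate 2 (adjusted p = 0.0503), monocyte replicate 1 (0.0611) or monocyte replicate 2 (0.0514). Smad6 (chr9:63953076-64022059, minus strand), known mainly as an inhibitor of BMP signalling, had 43.8, 38.9 and 39.0 CPM with TRMs, 46.9, 48.2 and 37.1 CPM with monocytes, and 54.4, 34.2 and 46.1 CPM alone. The Smad6 groups overlapped. Its log2 fold change was -0.12 with TRMs (95% interval -0.53 to 0.28, adjusted p = 0.706 by limma) and -0.01 with monocytes (95% interval -0.41 to 0.39, adjusted p = 0.974 by limma).

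Smad6 and Smad7 together took 37.1%, 32.8% and 32.7% of the CPM per kb of the 5 SMADs with TRMs, 37.4%, 34.5% and 30.6% with monocytes, and 32.1%, 25.3% and 29.5% alone. TRM libraries lay above those alone, the nearest pair being 32.7% and 32.1%. The means were 34.2% ± 2.51 with TRMs, 34.2% ± 3.43 with monocytes and 29.0% ± 3.42 alone (SD, n = 3 each). The exact two-sided permutation test gave p = 0.1 for TRMs against alone and p = 0.2 for monocytes against alone, each 0.3 after the same adjustment.

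**Figure D2:**
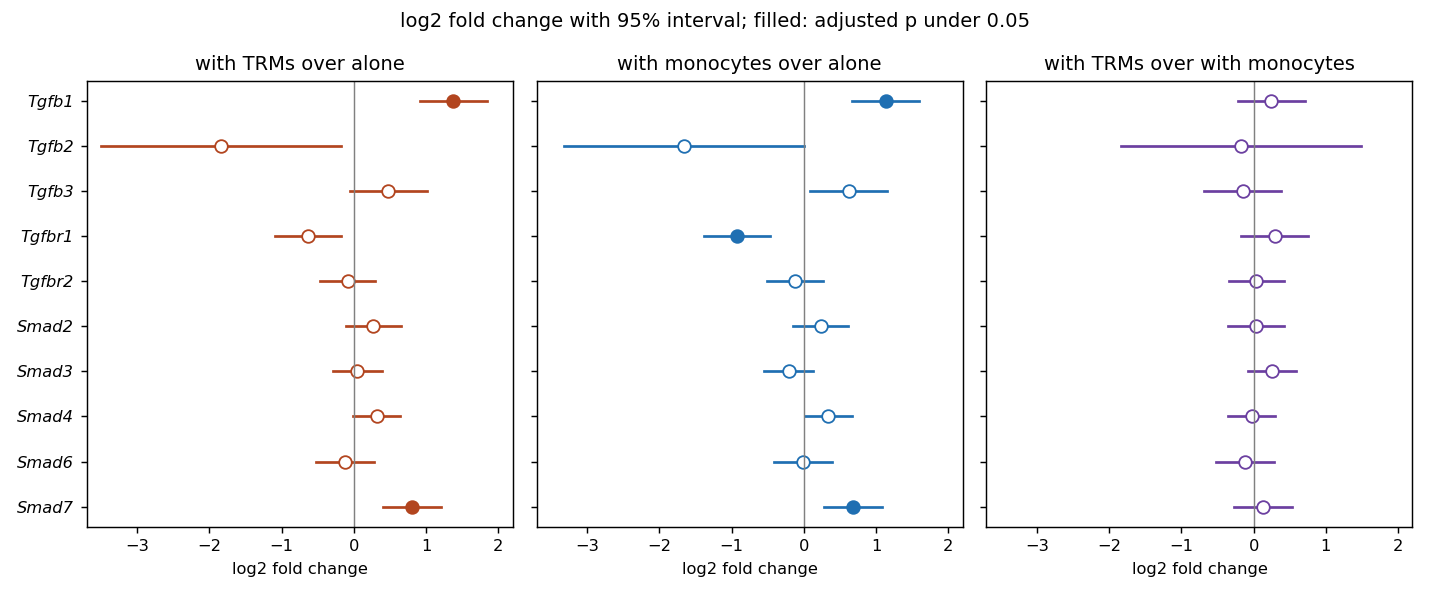
Log2 fold changes of the 10 genes with 95% intervals from limma, for TRM co-culture over alone, monocyte co-culture over alone and TRM co-culture over monocyte co-culture; filled points have an adjusted p under 0.05. Tgfb1 (1.38 and 1.13) and Smad7 (0.81 and 0.68) are filled to the right in both comparisons with tumour cells alone, Tgfbr1 is filled with monocytes (-0.92), and no point is filled between the co-cultures.

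Levels were compared between genes as CPM per kb of annotated exon. In both co-cultures the order of the mean levels was Smad4, Smad7, Smad3, Tgfb1, Tgfbr1, Tgfbr2, Smad6, Smad2, Tgfb3 and Tgfb2. In tumour cells alone it was Smad4, Smad3, Smad7, Tgfbr1, Tgfbr2, Smad6, Smad2, Tgfb1, Tgfb3 and Tgfb2. Smad4 had the highest mean, with 67.0 ± 11.3 CPM per kb with TRMs, 67.7 ± 8.31 with monocytes and 53.3 ± 4.08 alone. Tgfb2 had the lowest, with 0.166 ± 0.0607 CPM per kb with TRMs, 0.277 ± 0.275 with monocytes and 0.583 ± 0.103 alone. Tgfb1 stood 4th of 10 in the co-cultures and 8th alone. Its level was 22.6 ± 3.57 CPM per kb with TRMs, 19.7 ± 6.77 with monocytes and 8.64 ± 0.689 alone. With TRMs, its range overlapped that of Tgfbr1 and was apart from that of Smad3. Alone, its range overlapped that of Smad2 and was apart from that of Tgfb3. Neighbours from Tgfb1 down to Smad2 overlapped in both co-cultures, so the order within that stretch was not resolved by the spread of 3 libraries. With the longest transcript as length in place of the exon union, Tgfb1 stood 5th alone and still 4th in the co-cultures.

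**Figure D3:**
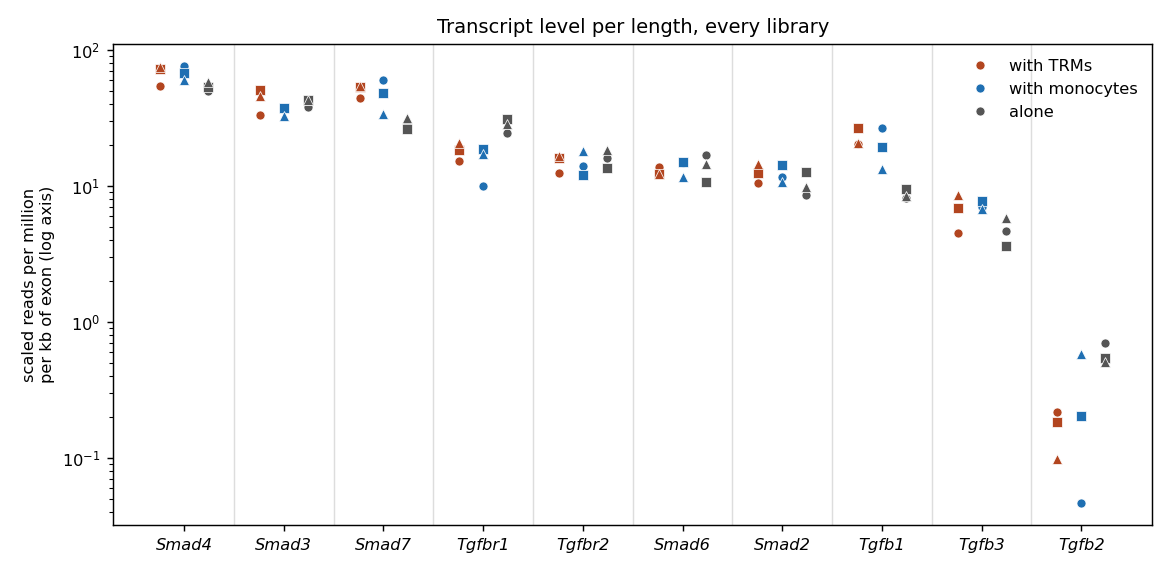
Level of each gene in CPM per kb of exon (log axis), ordered by the mean in tumour cells alone, with TRM co-culture, monocyte co-culture and alone from left to right and 1 point per library (circle, square and triangle for replicates 1, 2 and 3). Tgfb1 lies near 8.64 alone and near 22.6 with TRMs, and Tgfb2 lies below 1 in every library.

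Between the co-cultures none of the 10 genes was called, beside 0.398% of all genes. None of the 10 had an unadjusted p under 0.05 by limma, edgeR or DESeq2, and the smallest adjusted p by limma was 0.591 (Smad3). The groups did not overlap for 0 of the 10, beside 16.2% of all genes. The log2 fold change of TRM over monocyte co-culture was 0.24 for Tgfb1 (95% interval -0.22 to 0.71), and -0.01 without monocyte replicate 3. It was 0.29 for Tgfbr1 (95% interval -0.17 to 0.75) and 0.13 for Smad7 (95% interval -0.27 to 0.53). Over 125 genes of the pathway, which take in the 10 and the lists described next, limma called 0, with 14 at an unadjusted p under 0.05. edgeR also called 0, with 14 at that level, and DESeq2 called 0, with 18. Without monocyte replicate 3, limma called 1 latency gene and 2 target genes, beside 1.09% of all genes.

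Several of the genes that act before the receptors, on latent TGF-beta, changed in each co-culture. This list and those below were drawn up with earlier results of these data known, so their called shares are no independent test. With TRMs 8 of 17 such genes rose, none fell and 9 were not called, with a median log2 fold change of 0.54 over the list. With monocytes 7 rose, 3 fell and 7 were not called, with a median of 0.56. The called share was 47.1% of the list with TRMs, beside 18.4% of all genes, and 58.8% with monocytes, beside 27.3% of all genes. The median of all genes was -0.0019 and -0.02 in these comparisons. Itgb3, the beta subunit of an integrin that binds latent TGF-beta, had 232, 316 and 244 CPM with TRMs, 236, 347 and 192 CPM with monocytes, and 66.7, 81.5 and 83.1 CPM alone. All co-culture libraries were above all those alone, with a 3.41-fold rise with TRMs (adjusted p = 7.2e-05 by limma) and a 3.27-fold rise with monocytes (adjusted p = 6.66e-05 by limma). Furin, the protease that cuts the TGF-beta proprotein, averaged 609 ± 44.9 CPM with TRMs, 508 ± 98.4 CPM with monocytes and 325 ± 46.3 CPM alone. It rose 1.88-fold and 1.55-fold. Itgb5, another integrin beta subunit, rose 1.85-fold with TRMs and 2.28-fold with monocytes. Ltbp1, a latent TGF-beta binding protein, rose 1.65-fold with TRMs (adjusted p = 0.0485 by limma, with overlapping groups) and 2.14-fold with monocytes. Mmp14 and Bmp1, proteases that act on matrix and on binding proteins, rose 1.76-fold and 1.57-fold with TRMs, and 1.66-fold and 1.82-fold with monocytes. The activating integrin subunit Itgb6 had 38.4 ± 12.4 CPM with TRMs, 19.5 ± 9.57 CPM with monocytes and 56.9 ± 14.5 CPM alone. It was 3.07-fold lower with monocytes (adjusted p = 0.0022 by limma) and not called with TRMs (adjusted p = 0.235). Itgb8, the other activating subunit, was 5.23-fold lower with monocytes at 0.549 ± 0.363 CPM, against 2.24 ± 0.312 CPM alone. Thbs1, a matrix protein that can activate the latent complex, was 1.83-fold lower with monocytes. Itgav, the alpha subunit that pairs with these beta subunits, was not called (adjusted p = 0.101 with TRMs and 0.069 with monocytes by limma, and 0.0123 and 0.0258 without TRM replicate 1).

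Several of these calls were lost when any 1 of several libraries was left out. For Ltbp1 with TRMs the log2 fold change ran from 0.51 to 1.02 over all fits without 1 library. The call of Ltbp1 with TRMs was lost without any 1 of the alone replicates, TRM replicate 2 or 3, or monocyte replicate 1 or 2 (adjusted p up to 0.223 by limma). That of Thbs1 with monocytes was lost without any 1 of the alone replicates or monocyte replicate 1 (up to 0.132). Itgb8 lost its call without any 1 of the alone replicates, TRM replicate 2 or 3, or monocyte replicate 1 (up to 0.123), and also by edgeR (0.0742). The number of latency genes that rose with TRMs was 5 without alone replicate 1 or 2 and 4 without TRM replicate 2. Of all genes, 11.7%, 16.5% and 9.89% were called with TRMs in these fits, beside 18.4% with all libraries. The number that fell with monocytes was 1 without any 1 of the alone replicates or without monocyte replicate 1. Between 18.2% and 25.4% of all genes were called with monocytes in these fits, beside 27.3% with all libraries.

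Regulators of the receptors and SMADs moved in both directions, with 3 of 22 higher and 3 lower in each co-culture. That is 27.3% of the list, beside 18.4% of all genes with TRMs and 27.3% of all genes with monocytes, so the number called with monocytes does not set the list apart. The 3 that fell with TRMs were also those that fell with monocytes. Nedd4l, a ubiquitin ligase that acts on activated Smad2 and Smad3, had 45.3 ± 6.61 CPM with TRMs, 47.0 ± 11.5 CPM with monocytes and 125 ± 39.7 CPM alone. It was 2.68-fold lower with TRMs and 2.62-fold lower with monocytes. The SMAD repressors Tgif1 and Skil were 1.72-fold and 1.56-fold lower with TRMs, and 1.77-fold and 1.67-fold lower with monocytes. The adjusted p of Skil with TRMs was 0.04996 by limma and 0.0661 by edgeR. Ski, the repressor related to Skil, was not called (log2 fold change 0.04 and -0.02). Dab2, an adaptor that binds the receptors, rose 3.40-fold with TRMs and 5.65-fold with monocytes. Pmepa1, a feedback inhibitor that holds back Smad2 and Smad3, rose 1.73-fold with TRMs (adjusted p = 0.0097 by limma), and had an adjusted p of 0.11 with monocytes. Smurf1, a ubiquitin ligase that works with Smad7, rose 1.67-fold with TRMs, and had an adjusted p of 0.319 with monocytes. Smurf2 was not called in either. Bambi, a decoy receptor, was at 7.62 ± 1.39 CPM with TRMs, 9.90 ± 3.30 CPM with monocytes and 4.99 ± 1.26 CPM alone, and was called with monocytes. That call was lost without any 1 of the alone replicates, TRM replicate 2 or 3, or monocyte replicate 2 (adjusted p up to 0.157 by limma). Skil lost its TRM call without any 1 of the alone replicates or TRM replicate 1 or 2 (up to 0.179), and its monocyte call without alone replicate 2 or 3 or monocyte replicate 1 (up to 0.0757). Smurf1 lost its TRM call without alone replicate 1 or 3 or TRM replicate 2 (up to 0.0808). Without alone replicate 2, Pmepa1 and Smurf1 were called with monocytes (0.0443 and 0.0409). The third gene called higher with monocytes, Eng, was named after its values were seen and lay at 3.97 CPM or less in every library. The number higher with monocytes was 1 without TRM replicate 2 or 3, without alone replicate 1, and without monocyte replicate 2. Of all genes, 24.3%, 25.2%, 18.9% and 22.3% were called with monocytes in these fits.

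Of 14 nuclear partners of the SMADs, 1 rose and 4 fell with TRMs, and 2 rose and 2 fell with monocytes. The called share was 35.7% with TRMs, beside 18.4% of all genes, and 28.6% with monocytes, near the 27.3% of all genes. The histone acetyltransferase gene Ep300 had 105 ± 7.73 CPM with TRMs, 85.4 ± 8.87 CPM with monocytes and 175 ± 14.6 CPM alone. It was 1.66-fold lower with TRMs (adjusted p = 0.0021 by limma) and 2.06-fold lower with monocytes (adjusted p = 0.00014 by limma). Its relative Crebbp was 1.55-fold lower with TRMs and had an adjusted p of 0.0534 with monocytes. Jun, an AP-1 subunit, was 1.6-fold lower with TRMs and 2.22-fold lower with monocytes. The co-repressor gene Ncor1, named after its values were seen, was the 4th to fall with TRMs. Runx2, a runt-family factor, rose 2.36-fold and 2.35-fold. Ctbp1, a co-repressor, rose 1.6-fold with monocytes. Crebbp lost its TRM call without alone replicate 2 or 3 or TRM replicate 2 (adjusted p up to 0.0737 by limma), and Jun without alone replicate 1 or 3 or TRM replicate 2 (up to 0.0576). The number that rose with TRMs was 2 without monocyte replicate 1 or 3. The number that fell with TRMs was 2 without alone replicate 2, and 1 without alone replicate 3 or TRM replicate 2. With monocytes it was 5 without monocyte replicate 1.

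Among 29 genes known as TGF-beta targets, 14 rose, 3 fell and 12 were not called with TRMs, with a list median log2 fold change of 0.70. With monocytes 10 rose, 5 fell and 14 were not called, with a median of 0.43. The medians of all genes were -0.0019 and -0.02. The called share of the list was 58.6% with TRMs, where 10.2% of all genes were called higher and 8.15% lower, and 51.7% with monocytes, where 14.7% were called higher and 12.7% lower. Snai1, a repressor of epithelial genes, had 3.60, 4.86 and 4.38 CPM with TRMs, 8.51, 4.17 and 3.72 CPM with monocytes, and 0.692, 1.06 and 0.766 CPM alone. Every co-culture library was above every library alone, with a 5.14-fold rise with TRMs (adjusted p = 0.0026 by limma) and a 6.16-fold rise with monocytes (adjusted p = 0.00091 by limma). Timp1, a metalloproteinase inhibitor, rose 3.76-fold and 4.70-fold, and the basement membrane collagen Col4a1 rose 2.00-fold and 2.78-fold. Zeb1, another repressor of epithelial genes, named after its values were seen, rose 3.26-fold and 3.85-fold. Of 8 epithelial markers none rose. The called share was 12.5% with TRMs, below the 18.4% of all genes, and 37.5% with monocytes, beside 27.3% of all genes. The list median log2 fold change was 0.0021 with TRMs, with 4 of 8 above 0, and -0.49 with monocytes. With TRMs 1 fell, the tight junction gene Ocln, which was 2.37-fold lower. With monocytes 3 fell: Ocln was 3.93-fold lower, the cadherin gene Cdh1 1.95-fold lower and the claudin gene Cldn7 2.13-fold lower. Without monocyte replicate 3, 2 epithelial markers fell with TRMs and 5 with monocytes, beside 21% and 28.6% of all genes called.

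Other target genes moved the opposite way. Ccn2, a matricellular protein induced by TGF-beta and also by YAP, had 1227, 1149 and 1064 CPM with TRMs, 732, 654 and 1194 CPM with monocytes, and 2213, 2137 and 2238 CPM alone. The groups were far apart: Ccn2 was 1.92-fold lower with TRMs (adjusted p = 0.0043 by limma) and 2.64-fold lower with monocytes (adjusted p = 0.00021 by limma). Skil and Tgif1, which are both regulators and targets, also fell in both. Itgb6 and Cdkn2b, a cell-cycle inhibitor named after its values were seen, fell with monocytes. The number of targets that rose with TRMs was 9 without alone replicate 1 and 8 without TRM replicate 2. With monocytes it was 6 without alone replicate 1 or monocyte replicate 1. In these fits 11.7% and 9.89% of all genes were called with TRMs, and 18.9% and 22.1% with monocytes. Of these 29 genes, 6 also stand among the latency genes or the regulators (Itgb6, Ltbp2, Ltbp3, Pmepa1, Skil and Tgif1).

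**Figure D4:**
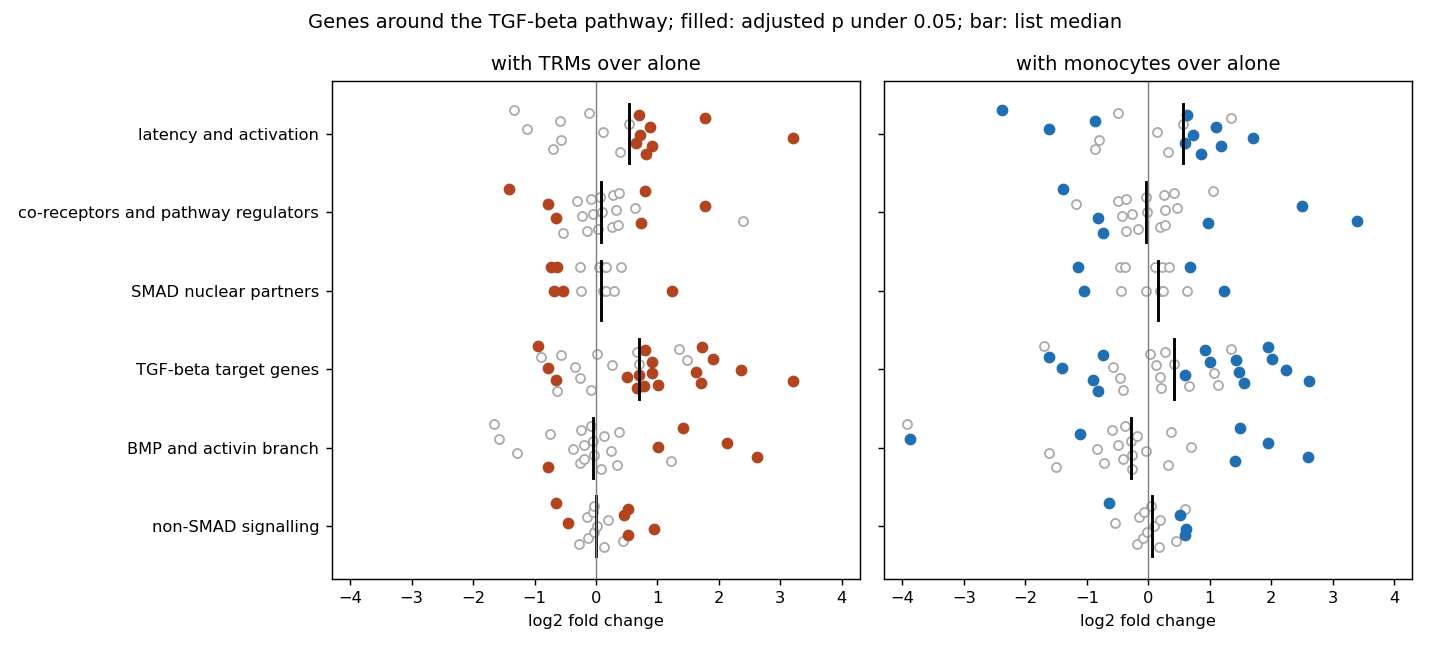
Log2 fold changes of the genes around the pathway by list, for TRM co-culture over alone and monocyte co-culture over alone; filled points have an adjusted p under 0.05, the black bar is the list median, and vertical scatter within a list only separates points. The medians of the latency genes (0.54 and 0.56) and of the target genes (0.70 and 0.43) lie to the right of 0, and every list holds filled points on both sides in at least 1 of the comparisons.

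In the BMP and activin branch 4 of 23 genes rose and 1 fell with TRMs, and 4 rose and 2 fell with monocytes. These shares, 21.7% with TRMs and 26.1% with monocytes, lay near the 18.4% and 27.3% of all genes and do not set the branch apart. The same 4 rose in both. Id3, a BMP target that blocks helix-loop-helix factors, had 189, 297 and 256 CPM with TRMs, 351, 424 and 257 CPM with monocytes, and 34.6, 78.9 and 62.9 CPM alone. The libraries did not overlap between either co-culture and alone. Id3 was 4.37-fold and 6.06-fold higher, and its relative Id1 was 2.01-fold and 2.82-fold higher. Inhba, which encodes the activin A subunit, averaged 93.8 ± 22.9 CPM with TRMs, 94.9 ± 26.2 CPM with monocytes and 34.8 ± 5.13 CPM alone. It rose 2.66-fold and 2.67-fold. Fstl3, an activin antagonist, rose 6.12-fold and 3.86-fold from a level of 1.02 ± 0.441 CPM alone. The activin receptor gene Acvr2a was 1.72-fold lower with TRMs and 2.15-fold lower with monocytes. Bmpr1b, named after its values were seen, was the other gene that fell with monocytes. With TRMs the number that fell was 0 without TRM replicate 2 and without any 1 of the alone replicates, and 2 without TRM replicate 3. With monocytes it was 1 without alone replicate 3, 5 without monocyte replicate 3, 1 by edgeR and 3 by DESeq2. Of all genes, 9.89% to 16.5% were called in those TRM fits. With monocytes the share was 18.2% without alone replicate 3 and 28.6% without monocyte replicate 3.

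Of 16 genes of the non-SMAD routes, 4 rose and 2 fell with TRMs, and 3 rose and 1 fell with monocytes. The called share was 37.5% with TRMs, beside 18.4% of all genes, and 25% with monocytes, near the 27.3% of all genes. Akt1 and the adaptor Shc1 rose 1.44-fold and 1.43-fold with TRMs, and 1.53-fold and 1.51-fold with monocytes. Traf6, a ubiquitin ligase that links the receptors to the kinase Map3k7, was 1.37-fold lower with TRMs and 1.56-fold lower with monocytes. Map2k6 and Rhoa rose with TRMs (1.93-fold and 1.38-fold), and Map2k3 rose with monocytes (1.43-fold). Pik3r1, named after its values were seen, was the other gene that fell with TRMs. The number that rose was 0 without TRM replicate 2, 1 without alone replicate 1, and 2 without alone replicate 3 or TRM replicate 3. The number that fell was 0 without TRM replicate 1 or 2 and without alone replicate 2 or 3, and 1 without alone replicate 1 or TRM replicate 3. In these TRM fits 9.89% to 16.5% of all genes were called. With monocytes the number that fell was 2 without monocyte replicate 2, and 2 by DESeq2. With TRMs, the highest adjusted p among fits without 1 library was 0.119 for Shc1, 0.0699 for Akt1, 0.128 for Rhoa and 0.052 for Map2k6, all by limma. With monocytes it was 0.114 for Map2k3.

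Across the 9 libraries, the genes whose centred log2 values were most like those of Tgfb1 were Rnf19b (root mean square difference 0.137) and Cd276 (0.141), beside a median of 0.738 over 12055 genes. Rnf19b averaged 130 CPM with TRMs, 105 CPM with monocytes and 56.5 CPM alone. For Tgfbr1 they were Arhgap12 (0.118) and Avl9 (0.120), beside a median of 0.582. For Smad7 they were Map7d1 (0.109) and Sfxn3 (0.112), beside a median of 0.542. These genes were picked as the nearest in the same 9 libraries, so lying under the median was fixed by that choice.

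In the authors' deposited tables, Tgfb1 has a log2 fold change of 1.36 with TRMs (false discovery rate 1.69e-12) and 1.16 with monocytes (6.06e-05), and Smad7 has 0.79 (2.86e-06) and 0.69 (0.0070). Tgfbr1 with monocytes is listed there at -0.90 (0.00033). The false discovery rates of the other 7 genes are not under 0.05 in either of the authors' deposited tables.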

How the data were processed

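RNA was sequenced from GFP-positive cells of 9 spheroid samples (SMART-Seq v4 cDNA from 1 ng of RNA, per the labels' protocols). STAR 2.5, edgeR and the build mm10 are listed in the submitters' processing notes. The counting tool is not given in the sources used here, nor is the annotation. Per gene, the deposited values are a normalised signal per gene: whole reads plus 0.5, divided by the TMM-scaled library size, as CPM. All 111051 deposited values gave whole reads within 1e-06 of a read (100%). The authors' deposited comparison tables hold log2 fold changes, mean log2 levels, a likelihood ratio score and p-values with false discovery rates, per the file headers.

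Tests were run in R 4.3.3 (DESeq2 1.42.0, edgeR 4.0.16, limma 3.58.1) and summaries in Python 3.11.15. The filterByExpr filter of edgeR, with a minimum count of 10 and a minimum total of 15 recovered reads, removed 13 genes. limma with a mean-dependent variance prior was fitted to the log2 values of all 9 libraries with group means as terms (6 residual degrees of freedom), two-sided, with p-values adjusted over 12326 genes. The 0.5 read makes fold changes of low genes too small. The whole-read counts recovered from the deposited values served edgeR and DESeq2 as alternatives; others were limma-voom, log2(value + 1), other filters and scalings, a fit of the 2 groups alone, a replicate block and each library left out. The limma procedure was also run on simulated counts with known changes, and its outcome is not reported here or used as support.

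Replicates of a group had correlations of 0.908 to 0.974 across genes and chi-square values of 21.1 to 90.5 per gene, so none was treated as a copy. Positions come from GENCODE on GRCm38 (mm10). Promoter sequences come from RefSeq GRCm38.p6, and windows of 6 of the 10 genes were kept. Windows on chromosome 18, where Smad2, Smad4 and Smad7 lie, were left out, and none was usable for Tgfb3. The genes and lists were chosen with earlier results of these data known. The text names all 10 genes, up to 4 called genes of each list and contrast by smallest adjusted p, a set of well-known pathway genes whatever their p, and the 2 nearest genes in pattern for each called gene, with exceptions stated; 1 gene of that rule is not reported here.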

Additional observations from a re-analysis of the deposited data

How the results depend on the processing

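The calls of Tgfb1 in both co-cultures, of Smad7 with TRMs and of Tgfbr1 with monocytes held in all 19 alternatives tried. With TRMs, 2 of the 10 genes were called. The number was 4 when only the 2 groups were fitted, 3 by DESeq2, limma-voom, log2(value + 1), either other scaling and the replicate block, and 2 to 4 when 1 library was left out. Genes called with TRMs numbered 1219 to 2593 with 1 library left out (2262 with all), and those with monocytes 2239 to 3529 (3366 with all). Between the co-cultures 49 genes were called; the number was 336 by DESeq2, 86 by limma-voom, 75 with log2(value + 1) and 0 to 134 with 1 library left out. The cause was not tested.

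The replicate number as a block gave 79 called genes between the co-cultures. Same-numbered libraries deviated together in part only (correlations 0.43, 0.08 and 0.13 for TRM and alone, 0.15, -0.02 and 0.08 for monocyte and alone, 0.17, 0.04 and 0.21 for TRM and monocyte). Some libraries, but not all, correlated best with their own number. With so few replicates this does not settle whether the numbers mark pairs, and the main fit did not use them. Under the block the adjusted p of Tgfbr1 with TRMs was 0.0116 by limma.

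Scaling by library totals reversed the sign of 3 small uncalled values: Smad3 (-0.040) and Ski (-0.048) with TRMs, and Smad2 (-0.0030) between the co-cultures. Leaving out 1 library reversed uncalled log2 fold changes. With TRMs these ran from -0.19 to 0.048 for Tgfbr2, -0.081 to 0.22 for Smad3, -0.31 to 0.027 for Smad6 and -0.024 to 0.14 for Ski. With monocytes they ran from -0.28 to 0.014 for Tgfbr2, -0.19 to 0.14 for Smad6 and -0.14 to 0.15 for Ski. Between the co-cultures they ran from -0.014 to 0.49 for Tgfb1, -1.10 to 0.66 for Tgfb2, -0.35 to 0.10 for Tgfb3, -0.10 to 0.20 for Tgfbr2, -0.081 to 0.15 for Smad2, -0.12 to 0.12 for Smad4 and -0.10 to 0.32 for Smad7. The difference in the inhibitory SMAD share between the co-cultures ran from -1.76 to 1.65 percentage points.

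Limits: with 3 libraries in a group an exact test of a share cannot go below p = 0.1. Tgfb2 rests on 5 to 98 reads per library, so its fold changes have wide intervals. Sorted cells numbered 20000 to 170000 per sample and the number for each is not given. The values measure transcripts, not secreted or active TGF-beta, receptor protein or SMAD phosphorylation.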
